A study of Homo sapiens with 16 samples.

Results

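The BCL2 family apoptosis regulators described here are 10 genes taken by symbol from a count table of 27037 genes: the pro-survival genes BCL2, BCL2L1 and MCL1, the BH3-only genes BCL2L11, BBC3, PMAIP1, BID and HRK, and the effector genes BAX and BAK1. RNA was sequenced from SK-N-BE(2)C cells, a human neuroblastoma line with amplified MYCN, in 16 samples. The 4 groups of 4 replicates were cells given DMSO (the vehicle), 10 µM retinoic acid (RA, a differentiating agent), 1 µM palbociclib (PB, which blocks CDK4 and CDK6, kinases of the cell cycle) or both agents (PB+RA), for 5 days by the study's methods. All groups are the same line, and replicates were passages of it plated as experiments of their own. The question for these genes is how each agent, and the pair, changed the transcripts of proteins that set the threshold for mitochondrial cell death. Death itself was not measured in these RNA data. In the paper, daily counts of this line rose or held steady under every treatment, which its authors read as no cell death. Those counts covered fewer days than the 5 of the RNA samples. Live imaging in the paper showed negligible death with PB and PB+RA.

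Cell death through the mitochondria is decided by binding between these proteins. BAX and BAK1 can open pores in the outer mitochondrial membrane and release cytochrome c. BCL2, Bcl-xL (from BCL2L1) and MCL1 hold them back, and the BH3-only proteins either occupy the pro-survival proteins or activate the effectors. BCL2 is abundant in many neuroblastomas, where drugs that mimic BH3 proteins have been studied.

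Samples held 19.5 to 31.6 M counts, and 3 counts, the most that a count of 0 allows, correspond to 0.0949 to 0.154 CPM (read counts scaled to the sample's total). All 10 genes were among the 15415 genes tested. The 7 adrenergic markers listed for the line (such as PHOX2A and MYCN) were all expressed, with summed levels of 5002 to 5514 CPM in DMSO, 4870 to 5855 in RA, 7891 to 9164 in PB and 6372 to 8501 in PB+RA. The 4 mesenchymal markers found in the table summed to 803 to 1095, 1012 to 1271, 529 to 711 and 548 to 737 CPM in the same order. SOX10 of Schwann cells reached at most 1 count in a sample, and PTPRC of leukocytes at most 6, while CD14 was higher with RA, so that the leukocyte list summed to 13.5 to 20.9 CPM in DMSO and 37.9 to 99.2 in RA. The part of these marker shifts in the results was not tested. In bulk RNA, fewer cells of a type and less RNA per cell cannot be told apart.

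The largest changes were in BH3-only genes. BBC3 rose 4.17-fold with PB and HRK rose 4.70-fold with PB+RA, while the effector gene BAK1 fell 1.46-fold with PB+RA. A gene was called at an edgeR quasi-likelihood adjusted p (Benjamini-Hochberg over all genes tested) below 0.05 with a log2 fold change of more than 0.5 in either direction, and fold changes here are on the log2 scale with their standard error (SE) unless given as fold. With PB, 3 of the 10 genes were called higher, against 16.9% of all genes tested, and 0 were called lower, against 11.3%. With RA, 2 were called higher (10.8% of all genes) and 0 lower (2.54%). With PB+RA, 3 were called higher (24%) and 1 lower (17.9%). With 10 genes, these counts are not read as particular to the family. Without the fold minimum, 6 genes were higher and 2 lower with PB (28.4% and 25.2% of all genes), 5 and 1 with RA (18.8% and 16.4%), and 5 and 3 with PB+RA (34.7% and 31.4%). CPM values of treated and DMSO samples did not overlap for 7 of the 10 genes with PB, 6 with RA and 7 with PB+RA, against 49.9%, 37.2% and 58.2% of all genes. The 3 comparisons share the DMSO samples.

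The counts of 0 lower genes were also 0 with DESeq2 and with limma-voom. At an unadjusted p under 0.05, 3 genes were lower with PB and 1 with RA. Across the 10 genes the median log2 change was 0.20 with PB, 0.19 with RA and 0.17 with PB+RA, beside 0.03, 0.01 and 0.04 over all genes. For RA, the split of calls over all genes depended on centring. Calls numbered 1661 higher and 392 lower, but 1306 and 816 after a GC and length correction that also removed the mean shift of each library, which moved the median of all genes from 0.011 to -0.10.

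**Figure D1:**
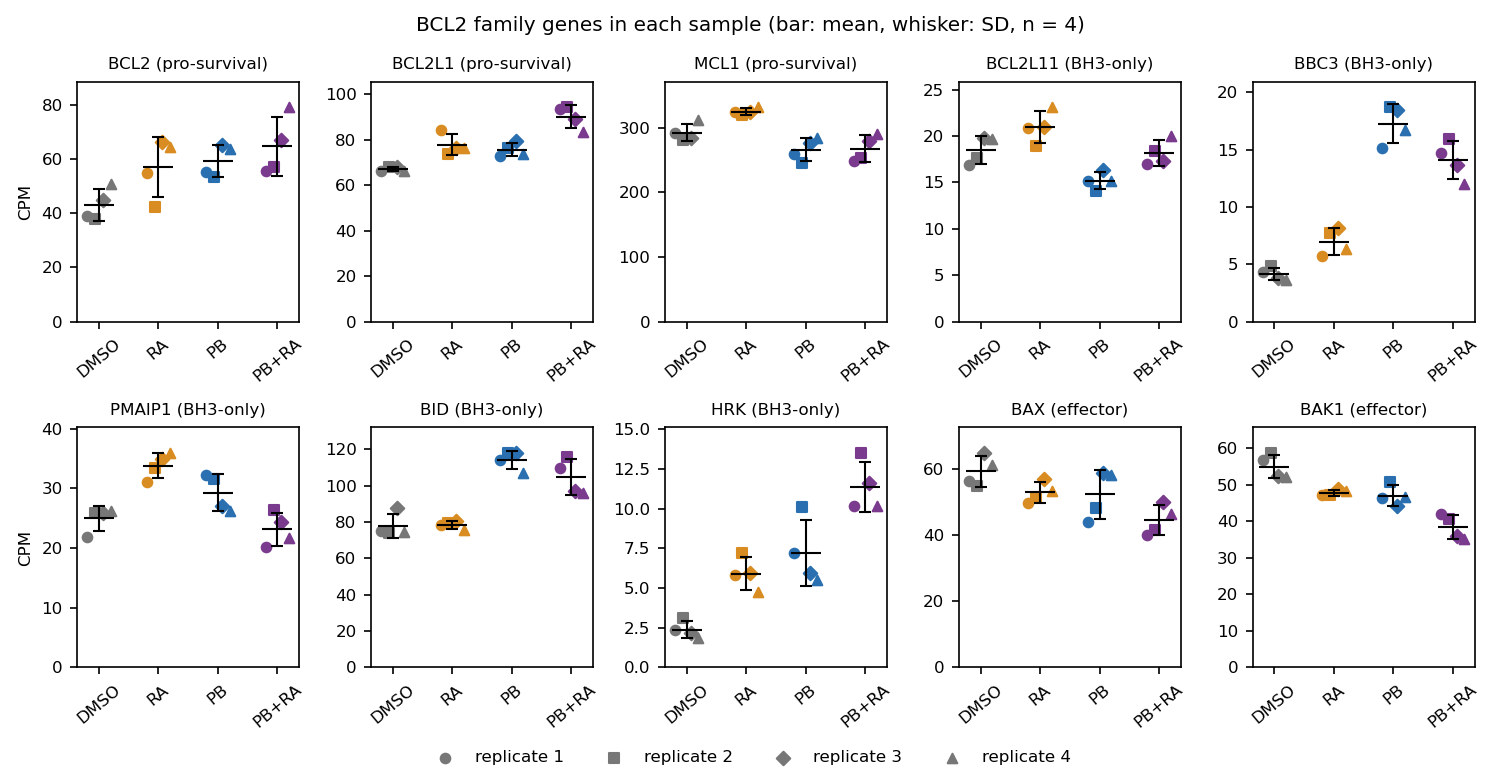
CPM of each of the 10 genes in the 16 samples, by group, with 1 symbol per replicate, bars at the group means and whiskers of 1 SD (n = 4). BBC3 lies between 3.6 and 4.85 CPM in DMSO and between 15.1 and 18.7 in PB, and HRK is highest in PB+RA, between 10.2 and 13.5.

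The sequences before the starts of 4 of these genes are shown because BBC3, HRK and BID were the genes called higher with PB and because BAX had the most E-box matches of the 9 promoters found. Each is the 250 bases before the gene's start in RefSeq (GRCh38.p14), read 5′ to 3′ on the gene's strand: chr19:47232668-47232917 (minus) for BBC3, chr12:116881442-116881691 (minus) for HRK, chr22:17774043-17774292 (minus) for BID and chr19:48954625-48954874 (plus) for BAX. Capitals mark exact matches to the E-box CACGTG, bound by MYC family proteins, or to CCAAT, which reads ATTGG on the other strand.
BBC3 promoter: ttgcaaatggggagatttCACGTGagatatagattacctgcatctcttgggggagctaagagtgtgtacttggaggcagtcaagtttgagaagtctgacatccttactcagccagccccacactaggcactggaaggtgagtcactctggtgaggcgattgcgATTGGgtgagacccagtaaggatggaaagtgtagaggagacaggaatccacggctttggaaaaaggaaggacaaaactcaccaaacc
HRK promoter: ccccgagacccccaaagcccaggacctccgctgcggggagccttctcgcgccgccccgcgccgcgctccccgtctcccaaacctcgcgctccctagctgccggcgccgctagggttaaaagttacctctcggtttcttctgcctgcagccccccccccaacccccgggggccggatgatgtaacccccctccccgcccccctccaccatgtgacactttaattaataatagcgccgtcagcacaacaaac
BID promoter: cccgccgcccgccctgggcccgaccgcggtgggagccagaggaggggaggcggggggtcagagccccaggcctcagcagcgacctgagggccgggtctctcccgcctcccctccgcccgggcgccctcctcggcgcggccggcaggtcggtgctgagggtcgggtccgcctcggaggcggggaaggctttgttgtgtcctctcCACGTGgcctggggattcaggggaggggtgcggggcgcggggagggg
BAX promoter: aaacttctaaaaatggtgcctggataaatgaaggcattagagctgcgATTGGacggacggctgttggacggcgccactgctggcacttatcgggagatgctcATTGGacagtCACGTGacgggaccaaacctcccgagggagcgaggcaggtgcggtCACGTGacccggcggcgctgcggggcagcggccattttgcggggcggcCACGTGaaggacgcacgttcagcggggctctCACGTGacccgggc

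Of the 10 genes, 9 matched a RefSeq promoter. CACGTG was found before 3 of the 9 (BBC3 and BID with 1 match each, BAX with 4), and 6.34% of 35116 promoters of this length hold it. CCAAT was found before 4 (BCL2L11, BBC3, BAX and BAK1), against 32% of promoters. The retinoid half-site AGGTCA, held by 12.1% of promoters, and the E2F motifs TTTCCCGC, TTTGGCGC and TTTCGCGC, held by 2.32%, were found before 0 of the 9. Both strands were searched, and a match is a description of the letters only. HRK, which rose in all 3 comparisons with DMSO, held none of these motifs in the window.

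BBC3 (PUMA, a BH3-only protein that binds all pro-survival members and is best known as a p53 target) lies on chromosome 19 at 47724079 to 47736023, minus strand, in GRCh37. Its levels in replicates 1 to 4 were 4.29, 4.85, 3.83 and 3.6 CPM in DMSO and 15.1, 18.7, 18.5 and 16.7 in PB. They were 5.69, 7.72, 8.14 and 6.35 CPM in RA and 14.7, 15.9, 13.7 and 12.0 in PB+RA. Every treated sample lay above every DMSO sample, and PB and PB+RA lay above RA. The rise of BBC3 was 2.06 ± 0.14 under PB (adjusted p 5.61e-09), 0.75 ± 0.14 under RA (adjusted p 0.000579) and 1.74 ± 0.14 under the pair (adjusted p 8.42e-09). PB+RA samples overlapped those of PB, and the difference of -0.32 ± 0.13 was not called (adjusted p 0.0562). It was lower in 4 of 4 same-numbered pairs, and with the replicate block it passed the adjusted p but not the fold minimum (-0.32 ± 0.09, adjusted p 0.00532). In the length-scaled measure BBC3 went from 1.3 ± 0.174 CPM per kb in DMSO to 5.42 ± 0.526 in PB (SD, n = 4).

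HRK (harakiri, a BH3-only protein expressed mainly in neurons, which binds BCL2 and Bcl-xL) lies on chromosome 12 at 117293949 to 117319246, minus strand. It was the least abundant of the 10 genes, with 48 to 77 counts per sample in DMSO. Replicates 1 to 4 stood at 2.34, 3.14, 2.18 and 1.86 CPM in DMSO, and at 10.2, 13.5, 11.6 and 10.2 in PB+RA. With a single agent they stood at 5.82, 7.2, 5.92 and 4.73 CPM in RA and at 7.21, 10.1, 5.94 and 5.52 in PB. All treated samples exceeded all DMSO samples, and all PB+RA samples exceeded all others. The rise of HRK was 1.60 ± 0.2 under PB (adjusted p 5.86e-06), 1.31 ± 0.2 under RA (adjusted p 0.00014) and 2.23 ± 0.2 under the pair (adjusted p 5.56e-08). PB+RA also exceeded RA by 0.92 ± 0.19 (adjusted p 0.0006) and PB by 0.63 ± 0.19 (adjusted p 0.0143). The last call was lost without PB replicate 4 (0.53, adjusted p 0.0511) and in replicates 1 and 2 alone (0.44, adjusted p 0.146). Replicate 2 was the highest of its group in all 4 groups.

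BID (the BH3-only protein cleaved by caspase-8, which links death receptors to mitochondria) lies on chromosome 22 at 18216904 to 18257536, minus strand. Its replicates stood at 75.2, 73.9, 87.8 and 74.4 CPM in DMSO and at 114, 118, 118 and 107 in PB. RA gave 78.4, 79.4, 80.7 and 75.6 CPM, and PB+RA gave 110, 116, 97.2 and 96.0. The RA values lay below DMSO replicate 3 and above the other DMSO samples. BID was thus separated by the presence of PB, and RA alone was not separated from DMSO while that replicate was counted. It rose by 0.56 ± 0.07 with PB (adjusted p 5.1e-06), a call lost to the fold minimum both in replicates 3 and 4 (0.43) and after the correction that was not centred (0.47). Under RA the change was 0.00 ± 0.07 (adjusted p 0.976), and under the pair it was 0.40 ± 0.07 (adjusted p 9.89e-05), under the fold minimum. The pair's change was past that minimum when just replicates 1 and 2 were used (0.57, adjusted p 1.05e-05).

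PMAIP1 (NOXA, a BH3-only protein that binds MCL1) lies on chromosome 18 at 57567228 to 57571537, plus strand. It stood at 21.9, 25.9, 25.9 and 26.2 CPM in DMSO and at 31.1, 33.4, 34.9 and 35.9 in RA. PB gave 32.3, 31.5, 27.0 and 26.2 CPM, and PB+RA gave 20.2, 26.3, 24.4 and 21.7. RA samples all lay above DMSO, whereas PB+RA samples overlapped DMSO and all lay below RA. The difference of RA from DMSO was 0.43 ± 0.091 (adjusted p 0.00186), under the fold minimum, and that of PB was 0.23 ± 0.092 (adjusted p 0.0464). PMAIP1 was lower in PB+RA than in RA by -0.56 ± 0.092 (adjusted p 7.03e-05). That call was lost after the GC and length correction (-0.39), which brought the RA difference past the fold minimum (0.56), and in replicates 1 and 2 alone (-0.49). PB+RA against DMSO was -0.14 ± 0.092 (adjusted p 0.201), and its sign turned under the correction (0.17).

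BCL2L11 (BIM, a BH3-only protein that binds all pro-survival members) lies on chromosome 2 at 111876955 to 111926021, plus strand. It ranged from 16.9 to 19.8 CPM in DMSO, 18.9 to 23.1 in RA, 14.1 to 16.3 in PB and 17.0 to 20.0 in PB+RA. It was called in none of the 5 comparisons or the interaction. PB lay below DMSO in all samples, by -0.29 ± 0.082 (adjusted p 0.00731), under the fold minimum. Exons of BCL2L11 share 727 bases with MIR4435-2HG on the opposite strand, which averaged 15.8 CPM beside 18.2 for BCL2L11, and the strand setting of the counting is not given, so these counts are uncertain.

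Both effector genes were lowest in PB+RA. BAK1 (chromosome 6, 33540324 to 33548070, minus strand) stood at 56.8, 58.7, 52.5 and 52.1 CPM in DMSO and at 41.9, 40.7, 36.1 and 35.1 in PB+RA. RA gave 47.1, 47.3, 48.8 and 48.3 CPM and PB gave 46.3, 50.9, 44.2 and 46.8. Each agent alone placed all samples below DMSO, and the pair placed all samples below those of either agent. BAK1 fell by 0.54 ± 0.066 with PB+RA (adjusted p 1.76e-06). The single differences, -0.22 ± 0.066 with PB (adjusted p 0.00848) and -0.21 ± 0.066 with RA (adjusted p 0.0203), passed the adjusted p but not the fold minimum.

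BAX (chromosome 19, 49458072 to 49465055, plus strand) ranged from 54.8 to 64.8 CPM in DMSO, 49.8 to 57.0 in RA, 43.9 to 58.9 in PB and 40.1 to 50.1 in PB+RA. Its PB+RA samples all lay below DMSO, by -0.44 ± 0.096 (adjusted p 0.000704), short of the fold minimum. The difference was called without DMSO replicate 2 (-0.51), without PB+RA replicate 3 (-0.53) and after the correction that was not centred (-0.52). The single agents gave -0.18 ± 0.096 with PB (adjusted p 0.127) and -0.17 ± 0.096 with RA (adjusted p 0.174). Within same-numbered replicates BAX was lower in 4 of 4 pairs with each, and with the replicate number as a block the differences were -0.19 ± 0.052 (adjusted p 0.004) and -0.17 ± 0.052 (adjusted p 0.00925), still under the fold minimum.

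Among the pro-survival genes, BCL2 alone was called against DMSO, with PB+RA and not with either agent by itself. Its level in PB+RA was 0.09 ± 0.14 above PB (adjusted p 0.645) and 0.16 ± 0.14 above RA (adjusted p 0.349, or 0.0269 with the replicate block) on the log2 scale. BCL2 (chromosome 18, 60790579 to 60987361, minus strand) stood at 38.9, 37.9, 45.0 and 50.7 CPM in DMSO and at 55.7, 56.9, 67.0 and 79.1 in PB+RA. RA gave 54.9, 42.1, 66.1 and 64.5 CPM and PB gave 55.1, 53.5, 65.2 and 63.5. PB and PB+RA samples all lay above DMSO, while RA replicate 2 lay within the DMSO range. In each group replicates 3 and 4 lay above replicates 1 and 2, and the same was true of BAX. BCL2 rose by 0.56 ± 0.14 with PB+RA (adjusted p 0.00276). The call was lost, always to the fold minimum, without DMSO replicate 1 (0.50), DMSO replicate 2 (0.47) or PB+RA replicate 4 (0.44), and after the GC and length correction (0.42, or 0.32 when not centred). PB gave 0.46 ± 0.14 (adjusted p 0.0123), a difference called without DMSO replicate 4 (0.54), and RA gave 0.39 ± 0.14 (adjusted p 0.043), called without RA replicate 2 (0.50).

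BCL2L1 (chromosome 20, 30252255 to 30311792, minus strand) encodes both the long pro-survival form Bcl-xL and a short form that promotes death, which gene counts cannot separate. It ranged from 66.4 to 68.1 CPM in DMSO, 73.8 to 84.4 in RA, 72.8 to 79.3 in PB and 83.2 to 94.3 in PB+RA. All treated samples lay above DMSO. The differences were 0.17 ± 0.056 under PB (adjusted p 0.0173), 0.20 ± 0.056 under RA (adjusted p 0.0105) and 0.39 ± 0.056 under the pair (adjusted p 9.56e-06), each under the fold minimum.

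MCL1 (chromosome 1, 150533371 to 150552214, minus strand) encodes a short-lived pro-survival protein. It ranged from 282 to 312 CPM in DMSO, 320 to 332 in RA, 245 to 284 in PB and 249 to 291 in PB+RA. RA samples were above all others, but the difference from DMSO was 0.14 ± 0.056 (adjusted p 0.0608, or 0.0058 with the replicate block). Against RA, PB+RA was lower by -0.30 ± 0.056 (adjusted p 0.0003), and against DMSO by -0.15 ± 0.056 (adjusted p 0.0231), both under the fold minimum. The difference between PB+RA and PB was -0.02 ± 0.056 (adjusted p 0.825).

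**Figure D2:**
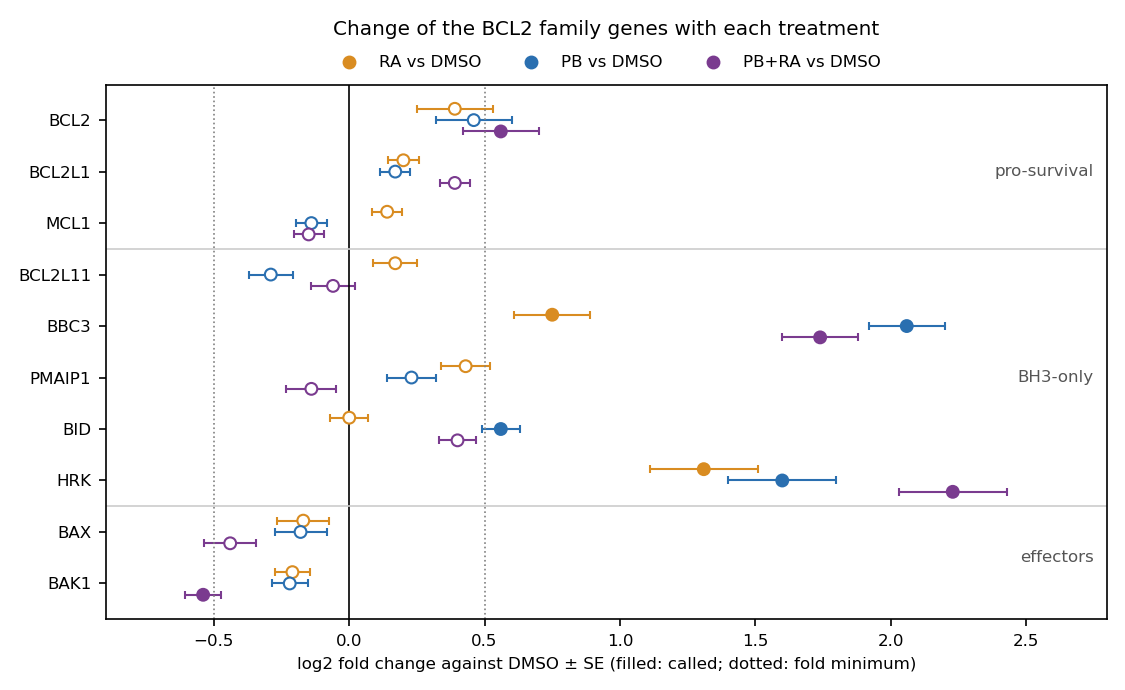
Log2 fold change against DMSO of the 10 genes with RA, PB and PB+RA (points, with whiskers of 1 SE), grouped by role; filled points were called and dotted lines mark the fold minimum of 0.5. BBC3 and HRK are filled in all 3 comparisons, and BAK1 is the only filled point below 0, at -0.54.

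Levels can be compared between genes only per length, here as CPM per kb of exon. In the mean of the 16 samples the order was MCL1 (46.3), BAK1 (21.3), BID (21.2), BAX (20.2), BCL2L1 (18.5), PMAIP1 (12.7), BCL2 (4.44), BBC3 (3.33), BCL2L11 (2.7) and HRK (0.98). The 4 genes from BAK1 to BCL2L1 changed places between groups and did not hold an order beyond their spread. In DMSO, the ranges of mean ± SD of BAK1 (24.9 ± 1.48) and BAX (22.9 ± 1.77) overlapped. In PB+RA both, at 17.4 ± 1.51 and 17.2 ± 1.76, lay below BID at 23.7 ± 2.17 and BCL2L1 at 21.5 ± 1.2 (SD, n = 4). With the longest transcript as the length, BAX (38.5) and BID (37.6) came directly after MCL1 and BAK1 (21.3) came after BCL2L1 (23.8). With that length BAX at 43.7 ± 3.37 stood well above BAK1 at 24.9 ± 1.48 in DMSO, and in PB+RA BAX at 32.8 ± 3.35 lay above BCL2L1 at 27.6 ± 1.55, so the places of BAX depend on the length used. MCL1 stayed first and HRK last under both lengths.

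**Figure D3:**
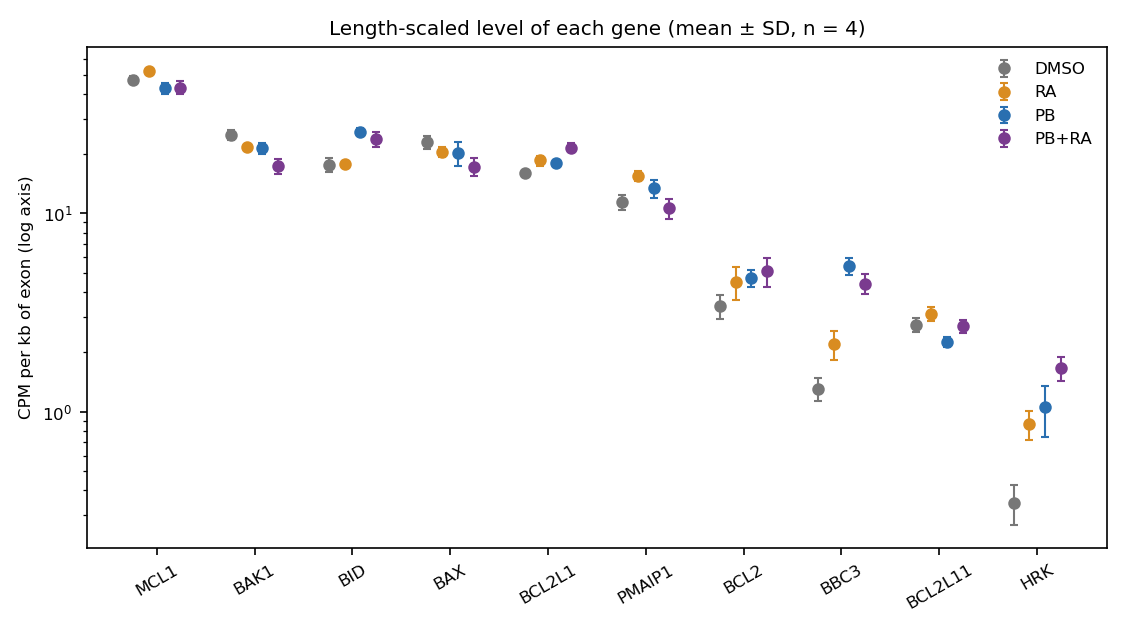
Length-scaled level (CPM per kb of exon, log axis) of the 10 genes in each group, as means with SD (n = 4), ordered by the mean of the 16 samples. MCL1 is highest in every group, and BBC3 spans 1.3 in DMSO to 5.42 in PB.

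On this scale MCL1 made up most of the pro-survival transcripts in every group, with smaller shares where PB was given. It held 70.8% ± 0.842 of the summed 3 genes with DMSO, and 69.4% ± 1.27, 65.3% ± 1.3 and 61.8% ± 2.06 with RA, PB and PB+RA (SD, n = 4). BCL2L1 held 24.1% ± 1.1, 24.6% ± 1.16, 27.5% ± 1.47 and 30.9% ± 2.97 in the same order of groups, and BCL2 held 5.13% ± 0.547, 5.98% ± 1.05, 7.17% ± 0.336 and 7.33% ± 0.923. The MCL1 shares of PB (63.8% to 66.8%) and PB+RA (60% to 64.2%) did not overlap those of DMSO (69.9% to 71.6%), and RA (68% to 71%) did. No test was made on these shares, which depend on the length used for each gene and say nothing of protein.

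PB+RA was also compared with each single agent. Against PB, 1 of the 10 genes was called higher (HRK), against 9.02% of all genes, and 0 lower, against 7.27% (5 at an unadjusted p under 0.05, and 0 with DESeq2 or limma-voom). Against RA, 2 were called higher (BBC3 by 0.99 ± 0.13, adjusted p 8.2e-06, and HRK), with 14.9% over all genes, and 1 lower (PMAIP1), with 14.1%. Without the fold minimum these counts were 3 higher and 3 lower against PB (17.2% and 20.9% of all genes), and 4 and 5 against RA (26.5% and 27.9%). CPM values did not overlap for 4 of the 10 genes against PB and 6 against RA, beside 31.4% and 46.7% of all genes. Among the genes under the fold minimum were BID at 0.39 ± 0.07 above RA (adjusted p 0.000168) and BAK1 at -0.33 ± 0.066 below it (adjusted p 0.000439). These comparisons share the PB+RA samples.

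The interaction asks whether the pair changed a gene by more or less than the sum of the single log2 changes. Of the 10 genes, 2 were called below that sum, against 3.02% of all genes, and 0 above it, against 0.415% (0 also at an unadjusted p under 0.05, with DESeq2 and with limma-voom). These shares of all genes moved with the fit: the 466 genes below the sum and 64 above it became 981 and 190 with the replicate number as a block, and 289 to 307 were below it without DMSO replicate 1, PB replicate 3 or RA replicate 3. For BBC3 the interaction was -1.07 ± 0.19 (adjusted p 0.00344), with the changes of 2.06 and 0.75 for the single agents beside 1.74 for the pair. It was -1.38 in replicates 3 and 4 alone and -0.71 in replicates 1 and 2 alone, where it was no longer called (adjusted p 0.143). For PMAIP1 it was -0.79 ± 0.13 (adjusted p 0.00212): RA gave 0.43 without PB and -0.36 ± 0.092 with it (adjusted p 0.00546). HRK was below the sum by -0.67 ± 0.28 and not called (adjusted p 0.196), but was called with the replicate number as a block (-0.66, adjusted p 0.0046). The BCL2L1 interaction was 0.02 ± 0.079 (adjusted p 0.926) and that of BAK1 -0.11 ± 0.093 (adjusted p 0.614).

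**Figure D4:**
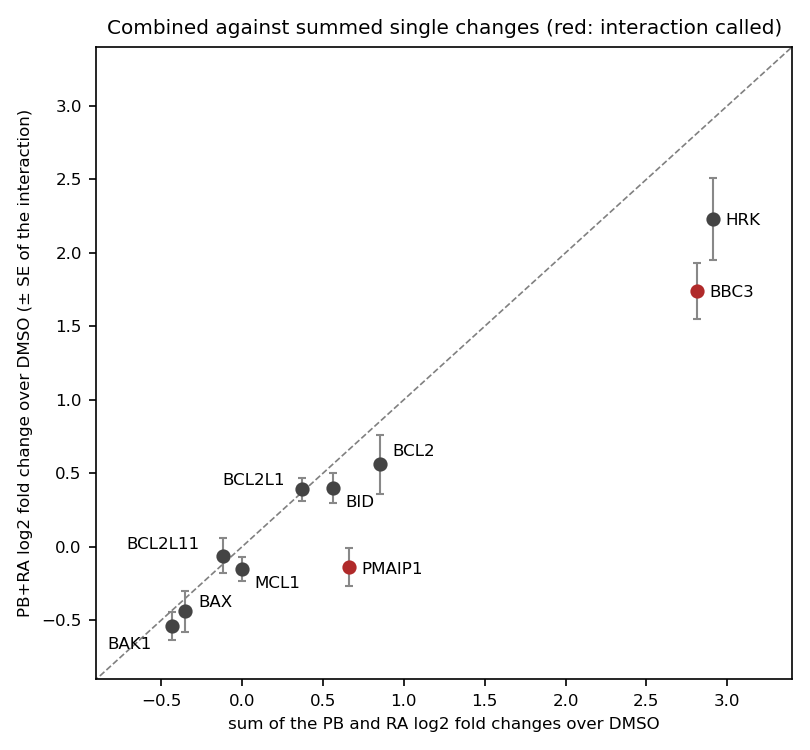
Log2 change from DMSO to PB+RA (vertical, with whiskers of 1 SE of the interaction) against the sum of the single PB and RA changes (horizontal) for the 10 genes; the dashed line is equality and red points were called. BBC3 and PMAIP1 lie below the line by 1.07 and 0.79.

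The genes whose patterns were most like those of BCL2 and of HRK, the gene with the widest span of group means (2.21 on the log2 scale), were sought among the 10002 genes that averaged 10 CPM or more. For BCL2, Pearson's r of log2 CPM over the 16 samples was highest for RBFOX2 (0.969), RHOU (0.942) and CLCN5 (0.939), and within groups it was 0.94, 0.92 and 0.92. For HRK it was highest for FAM214B (0.974), GPR83 (0.972) and AGPAT4 (0.972), with 0.84, 0.73 and 0.77 within groups. GPR83 averaged 2.29 CPM in DMSO, and 8.21, 14.5 and 24.8 CPM in RA, PB and PB+RA. These values describe samples that share groups and replicate numbers.

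Of 12 other BCL2 family genes listed, 8 were tested, and with PB+RA 2 were called higher and 1 lower, beside 24% and 17.9% of all genes. BOK, an effector-like relative of BAX and BAK1, changed most. DMSO samples stood at 8.21 ± 1.86 CPM, RA at 13.4 ± 3.1, PB at 17.2 ± 2.43 and PB+RA at 36.9 ± 4.93 (SD, n = 4), and its rise was 1.06 ± 0.18 under PB (adjusted p 0.000143), 0.69 ± 0.18 under RA (adjusted p 0.0084) and 2.14 ± 0.18 under the pair (adjusted p 4.05e-08). BMF, a BH3-only gene, fell by 0.94 ± 0.19 with PB (adjusted p 0.000522) and rose by 0.61 ± 0.18 with RA (adjusted p 0.0142), while PB+RA left it at -0.01 ± 0.18 (adjusted p 0.957). The RA call of BMF was lost without DMSO replicate 2 (0.49, adjusted p 0.0532) or RA replicate 4 (0.53, adjusted p 0.0533), and the single-agent calls of BOK were lost in replicates 1 and 2 alone (1.08, adjusted p 0.0562, and 0.80, adjusted p 0.181).

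With PB+RA, BAD, a BH3-only gene regulated by phosphorylation, fell by 0.67 ± 0.072 (adjusted p 4.48e-07), and BNIP3L, a mitophagy receptor, rose by 0.57 ± 0.081 (adjusted p 9.86e-06), a call lost without PB+RA replicate 3 (0.49). Both overlap genes of like level on the opposite strand (GPR137 and PNMA2), so their counts are uncertain. BCL2L2, which encodes the pro-survival protein BCL-W, was at 0.31 ± 0.048 (adjusted p 3.16e-05), BCL2L13 at 0.43 ± 0.1 (adjusted p 0.00182) and BNIP3 at -0.16 ± 0.066 (adjusted p 0.0381), all under the fold minimum. BCL2L10, at 0.271 to 0.531 CPM in the group means, was not called (-0.47 ± 0.51, adjusted p 0.43).

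Of 11 apoptosome and caspase genes, 4 were called lower and 2 higher with PB+RA, beside 17.9% and 24% of all genes (median -0.28, beside 0.04 over all genes). APAF1, the scaffold of the apoptosome, fell by 1.06 ± 0.21 under PB (adjusted p 0.000444) and fell by 1.05 ± 0.2 under the pair (adjusted p 0.000295), and was at 0.15 ± 0.2 with RA (adjusted p 0.6). With PB+RA, CASP10 fell by 1.37 ± 0.31 (adjusted p 0.000886) from a level near 1 CPM.

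Of 6 inhibitor of apoptosis genes tested, 0 were called higher with PB+RA, beside 24% of all genes, and 1 lower, beside 17.9% (0 higher also at an unadjusted p under 0.05). BIRC5 (survivin, a protein also needed for cell division) went from 171 ± 9.52 to 27.1 ± 5.18 CPM (SD, n = 4) and fell by 2.69 ± 0.12 (adjusted p 1.11e-11). Among 8 death receptor pathway genes, 1 was called higher and 1 lower with PB+RA, beside 24% and 17.9% of all genes. TNFRSF10A fell by 2.09 ± 0.28 (adjusted p 4.51e-06) from 1.19 CPM. TNFRSF1A rose by 0.54 ± 0.094 (adjusted p 8.51e-05), a call lost without DMSO replicate 3 (0.50), DMSO replicate 4 (0.49) or PB+RA replicate 2 (0.43). TNFRSF1A was also called higher with RA (0.56 ± 0.094, adjusted p 0.000253) and lower with PB (-0.51 ± 0.095, adjusted p 0.000268). The PB call was lost without DMSO replicate 2 (-0.49) or PB replicate 4 (-0.47). The RA call was lost after the correction that was not centred (0.45). Of 5 genes that control MCL1 protein turnover, the ubiquitin ligase genes BTRC and FBXW7 rose, by 0.92 ± 0.063 (adjusted p 1.77e-09) and 0.57 ± 0.08 (adjusted p 9.35e-06), and the deubiquitinase gene USP13 fell by 0.69 ± 0.064 (adjusted p 6.84e-08). The FBXW7 call was lost after the GC and length correction (0.44) and without PB+RA replicate 2 (0.46).

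Because BBC3 and PMAIP1 are known p53 targets, 14 regulators and targets of p53 were listed. With PB, where BBC3 rose most, 2 were called higher and 2 lower, shares near the 16.9% and 11.3% of all genes (median -0.24, beside 0.03 over all genes). CDKN1A, the p53 target that encodes the CDK inhibitor p21, fell by 0.52 ± 0.15 (adjusted p 0.00922). CDKN1A was no longer called with PB when PB replicate 4 was left out (-0.46, adjusted p 0.0255) and in replicates 1 and 2 alone (-0.50, adjusted p 0.0509). With RA, 3 were called higher and 0 lower, beside 10.8% and 2.54% of all genes (3 lower at an unadjusted p under 0.05). CDKN1A rose with RA by 1.37 ± 0.15 (adjusted p 7.38e-06) and GDF15 by 3.10 ± 0.19 (adjusted p 7.65e-09). ZMAT3 rose with PB, by 0.88 ± 0.12 (adjusted p 1.67e-05), and was at 0.05 ± 0.12 with RA (adjusted p 0.78).

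**Figure D5:**
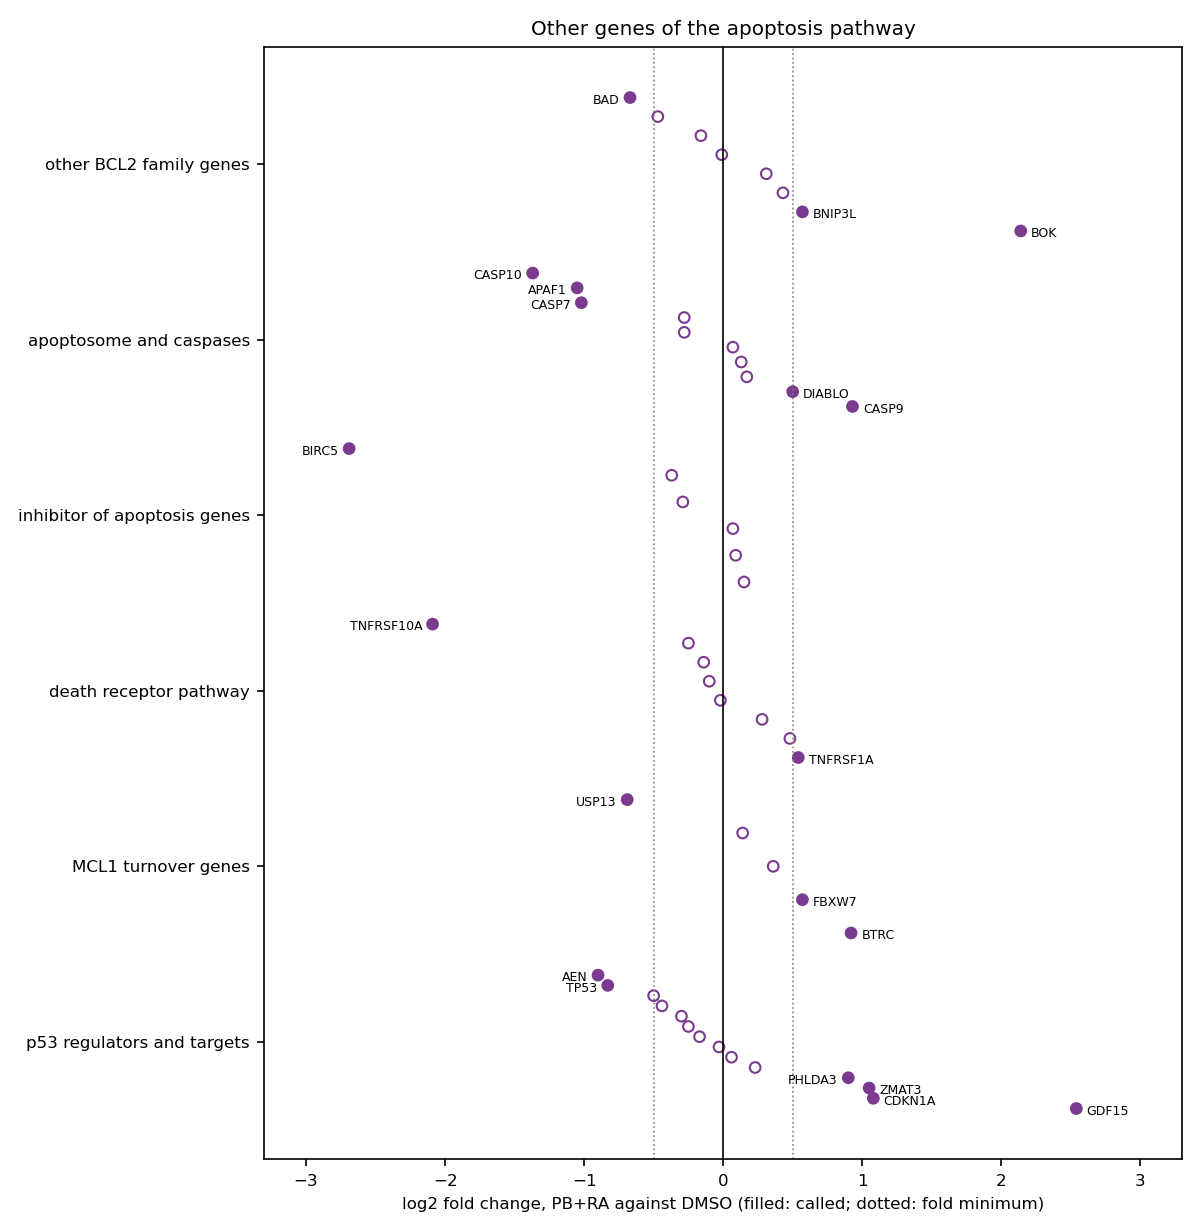
Log2 change from DMSO to PB+RA for the tested genes of 6 lists of the apoptosis pathway, leaving out a gene that is not reported here; filled points were called and are named, and dotted lines mark the fold minimum of 0.5. BIRC5 (-2.69) and TNFRSF10A (-2.09) are lowest, and GDF15 (2.54) and BOK (2.14) are highest.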

How the data were processed

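Polyadenylated RNA of 16 samples was sequenced as paired ends of 50 bases from strand-specific libraries. The authors trimmed reads with Trim Galore and aligned them to hg19 with STAR, for which the submitters' processing notes give releases 0.6.4 and 2.6.1d (the paper lists another release of STAR), and the deposited counts are its read counts per gene, unnormalized. The annotation release and strand column are not given in the sources used here, so opposite-strand overlaps are uncertain. The CPM deposited by the authors equal each count over its sample total. The authors' table of comparisons (log2 fold changes and adjusted p-values from DESeq2 1.32.0) was not used.

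Counts were tested in R 4.3.3 with edgeR 4.0.16: filterByExpr kept 15415 of 27037 genes, TMM factors were 0.983 to 1.02, and a robust quasi-likelihood fit with a coefficient per group was made on all 16 samples. Calls needed an adjusted p below 0.05 and an absolute log2 fold change above 0.5. SE is the absolute log2 fold change over the square root of F. The procedure was tested on simulated data. Log2 CPM used a prior count of 2. Lengths and GRCh37 coordinates are from GENCODE gene models, and 95.2% of tested genes had length and GC content. DESeq2 1.42.0 and limma 3.58.1 (voom) were alternatives. Total counts were 19.5 to 31.6 M, and floors of 3 counts cover counting error only.

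Groups and replicate numbers come from the sample titles. Same-numbered samples deviated together (24 pairs, r 0.33 to 0.573), so the numbers were taken to pair them; the replicate block was an alternative fit. P-values measure the spread between passages of a single line. Of the genes outside the family, those named were the other BCL2 family genes and, per list, at most the 3 with the largest called change in PB+RA against DMSO; some listed genes that counts and sums include are not reported here by name. The members and lists were chosen with earlier results of these data known.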

Additional observations from a re-analysis of the deposited data

Results flagged for a closer look

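Of 40 sets of 4 replicates examined for the 10 genes, 2 held a sample whose gap to the nearest other exceeded Dixon's 95% critical value for 4 samples, and chance gives about 1 set in 20. PMAIP1 in DMSO replicate 1 stood at 21.9 CPM, below the other DMSO samples at 25.9 to 26.2 (ratio 0.935). Without that sample the PMAIP1 difference was 0.14 for PB (adjusted p 0.216) in place of 0.23, 0.34 for RA (adjusted p 0.012) and -0.69 for the interaction (adjusted p 0.00829). BID in DMSO replicate 3 stood at 87.8 CPM, above the others at 73.9 to 75.2 (ratio 0.906). Without it BID rose by 0.60 with PB (adjusted p 2.57e-06) and was at 0.46 with PB+RA.

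The effect of RA differed with and without PB for 2 of the 10 genes by the interaction term of edgeR. Both were below the sum of the single changes, beside 3.02% of all genes below it and 0.415% above it. For BBC3 the term was -1.07 (adjusted p 0.00344), with RA at 0.75 in the absence of PB and -0.32 in its presence. The BBC3 term was not called in replicates 1 and 2 alone (-0.71, adjusted p 0.143). For PMAIP1 the term was -0.79 (adjusted p 0.00212), with RA at 0.43 and -0.36.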

How the results depend on the processing

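Of 60 results (10 genes in 5 comparisons and the interaction), 11 changed their call under 28 settings other than the fold minimum, and 0 of the results changed sign while called. With no fold minimum, the genes called higher and lower numbered 6 and 2 with PB, 5 and 1 with RA, 5 and 3 with PB+RA, 3 and 3 against PB, and 4 and 5 against RA. With a log2 minimum of 1 there were 1 higher with RA, 0 lower with PB+RA, 0 higher against PB, 0 higher and 0 lower against RA, and 1 below the sum in the interaction. After the GC and length correction, alone or with the replicate block, 0 genes were lower against RA. The same correction not centred, chosen after seeing the data, gave 0 lower against RA and 2 lower with PB+RA. Replicates 1 and 2 alone gave 0 higher against PB, 0 lower against RA and 1 below the sum. Leaving out 1 library in turn gave 3 to 4 higher with PB, 2 to 3 higher with RA, 2 to 3 higher and 1 to 2 lower with PB+RA, and 0 to 1 higher against PB, and left the other counts as they were. The replicate block changed the call of HRK in the interaction (-0.66, adjusted p 0.0046) and no other call of the 10 genes, but 9 further differences under the fold minimum passed the adjusted p with it. Over all genes, those above the sum in the interaction, 64 in number, became 104 with DESeq2, 117 after the correction not centred, 211 in replicates 3 and 4 alone and 201 (with 986 below) with the block and the correction, and the 392 genes lower with RA became 689 in replicates 3 and 4 alone. DESeq2, limma-voom, RLE size factors and both other filters on low counts changed none of the counts called among the 10 genes by over 1.5 times.

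HRK and BBC3 in DMSO rest on 48 to 77 and 93 to 121 counts a sample, the fewest of the 10 genes. Gene counts cannot separate isoforms of BCL2L1, MCL1 or BCL2L11.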
